A study of Mus musculus with 7 samples.

Results

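The genes described here are 10 mast cell proteases and markers, named by symbol: the chymases Mcpt1, Mcpt2, Mcpt4 and Cma1, the carboxypeptidase Cpa3, the tryptase Tpsb2, the receptor Kit, the IgE receptor subunits Fcer1a and Ms4a2, and the histamine-forming enzyme Hdc. All 10 were measured, each by 1 probe set that carries no other symbol, among 19938 genes in all. They were followed over 7 one-colour Affymetrix arrays of intestinal RNA from 3-month-old mice of strain C57Bl6/129Sv, 3 wild-type (WT) and 4 Atg4b knock-out (KO). Untreated (control) mice gave 1 ileum and 1 colon array per genotype. Mice given dextran sulfate sodium (DSS), a polymer that injures the colonic epithelium, by mouth for 7 days and then water for 3 days gave 1 WT and 2 KO colon arrays. It is not stated whether the control ileum and colon of a genotype came from 1 animal. The errors below measure the spread between these arrays, and 5 of the 6 groups hold a single array. Only the 2 KO DSS arrays are replicates, so the errors also take in differences of the genotype effect between the conditions.

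Mast cells are tissue-resident granulocytes that release stored proteases and histamine when IgE bound to the high-affinity receptor is cross-linked. In the mouse gut, mucosal mast cells of the epithelium and lamina propria are known for the chymases Mcpt1 and Mcpt2, while the connective tissue type of the submucosa and deeper layers stores Mcpt4, Cma1, Tpsb2 and Cpa3. Kit, the receptor for stem cell factor, is needed for mast cell survival, but interstitial cells of Cajal, the pacemaker cells of gut muscle, carry it too, and Hdc is also made by basophils and other myeloid cells.

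The upstream sequences of the neighbouring chymase genes Mcpt1 and Mcpt4 are shown as close paralogs with similar promoters, and that of Hdc because Hdc had the largest DSS difference among the members. Of the 10 genes 8 were matched by symbol in the RefSeq promoter table of build GRCm38.p6. The 250 bases before the start are printed 5′ to 3′ on the gene's strand, chr14:56017714-56017963 on the plus strand for Mcpt1, chr14:56062311-56062560 on the minus strand for Mcpt4 and chr2:126618679-126618928 on the minus strand for Hdc. Capitals mark the GATA core GATAA, which GATA factors of mast cells bind, on either strand.
Mcpt1: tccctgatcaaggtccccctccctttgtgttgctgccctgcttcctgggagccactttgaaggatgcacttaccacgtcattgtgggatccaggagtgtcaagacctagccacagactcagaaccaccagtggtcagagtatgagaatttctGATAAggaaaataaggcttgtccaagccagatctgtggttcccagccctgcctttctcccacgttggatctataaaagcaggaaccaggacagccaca
Mcpt4: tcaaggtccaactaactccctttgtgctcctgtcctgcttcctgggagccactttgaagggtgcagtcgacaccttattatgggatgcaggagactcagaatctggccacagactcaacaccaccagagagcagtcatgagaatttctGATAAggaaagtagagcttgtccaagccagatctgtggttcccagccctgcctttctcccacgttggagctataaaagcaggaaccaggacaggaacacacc
Hdc: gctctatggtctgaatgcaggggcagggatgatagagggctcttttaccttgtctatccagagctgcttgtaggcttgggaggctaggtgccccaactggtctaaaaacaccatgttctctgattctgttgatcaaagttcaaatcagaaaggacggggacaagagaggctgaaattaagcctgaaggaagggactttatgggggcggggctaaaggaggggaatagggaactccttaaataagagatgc
The Mcpt1 and Mcpt4 windows were identical at 207 of 254 aligned columns (81.5%), whereas no other pair of the 8 genes exceeded 50.9%. GATAA or its reverse complement TTATC stood in the windows of 6 of the 8 genes, all but Kit and Hdc. It stood in 22.6% of the 32851 promoter windows of this length in the table, which were not matched for base composition. The similar windows of Mcpt1 and Mcpt4 are both among the 6. The E-box core CATGTG, a form bound by Mitf and searched on both strands, where it can read CACATG, stood in 1 of the 8, that of Fcer1a, against 12.3% of all windows. These are matches of letters, and binding was not measured.

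The arrays matched their labelled genotype. Atg4b was at a log2 intensity of 7.35 to 7.72 on the 3 WT arrays and 5.39 to 5.45 on the 4 KO arrays, and array medians on the linear scale were between 121.4 and 126.45. The labelled sex went against the sex markers on the 3 WT arrays. Xist was at 12.16 to 12.55 on the 3 DSS arrays and at 5.19 to 5.52 on the 4 control arrays, and the Y-linked Eif2s3y went the opposite way, so an effect of DSS and one of the sex that these markers show cannot be told apart here. RNA of muscle genes also differed between the colon arrays. The mean log2 intensity of 14 smooth muscle genes was 11.19 and 11.15 in the WT and KO control colons. It was 10.63 and 9.71 in KO DSS replicates 1 and 2, and 9.19 in WT DSS colon. The mean of 9 epithelial genes was 11.86 to 12.06 over the same 5 arrays.

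Of the 10 members 5 were dim on every array. Mcpt4, Cma1, Cpa3, Fcer1a and Ms4a2 lay below the lower quartile of all genes (5.71 to 5.87) on all 7 arrays. Fcer1a, the IgE-binding subunit, had a lowest log2 intensity of 4.35, a median of 4.47 and a highest of 4.62. Ms4a2, the subunit that amplifies the receptor's signal, had 4.50, 4.56 and 4.64, and Mcpt4, the main chymase of connective tissue mast cells, 4.90, 4.99 and 5.06. For comparison, on the DSS arrays, where Xist was high, the Y-linked Eif2s3y and Uty read 4.28 to 4.51 and Kdm5d 5.02 to 5.43, and background differs between probe sets. Tpsb2, a tryptase of connective tissue mast cells, stayed between 5.87 and 6.18, just above the lower quartile of its array in each case. Kit, Hdc and, on some arrays, Mcpt2 were the brighter members. Differences of dim genes may be understated. In RNA from whole tissue, fewer cells of a type and less RNA per cell cannot be told apart.

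**Figure D1:**
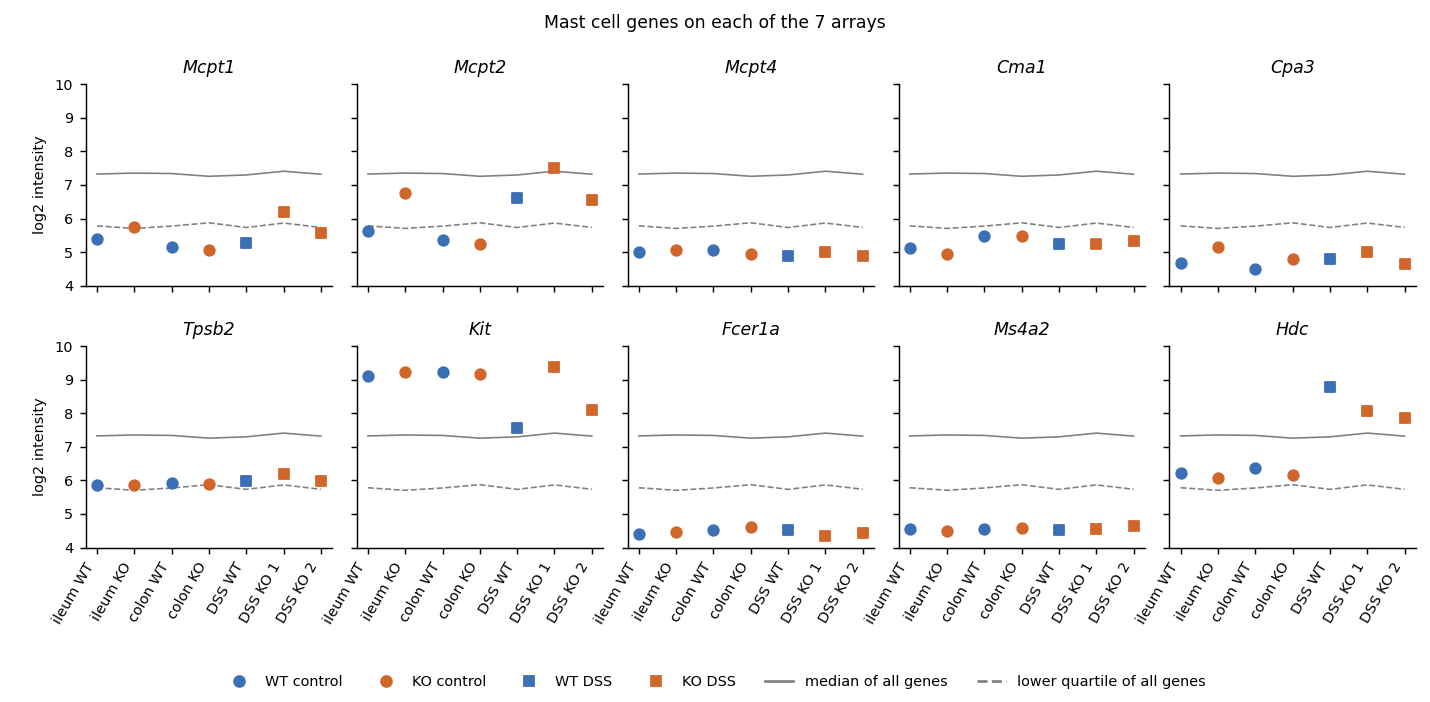
Log2 intensity (y axis) of each of the 10 genes on the 7 arrays (x axis), 1 point per array, with WT in blue, KO in orange, controls as circles and DSS colon as squares; the grey lines are the median (solid) and lower quartile (dashed) of all genes on each array. Mcpt4, Cma1, Cpa3, Fcer1a and Ms4a2 lie below the dashed line on every array, Mcpt2 ranges from 5.26 to 7.50, Kit is lowest in WT DSS colon (7.55) and Hdc is highest there (8.78).

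In DSS-treated colon Hdc and Mcpt2 rose, and no other member passed the test. Hdc was 4.10-fold and Mcpt2 2.82-fold above the control colon. In limma 2 of 10 members were higher and 0 lower, called at an adjusted p (Benjamini-Hochberg, over the 19938 genes) under 0.05, against 7.20% of all genes higher, 3.43% lower and 10.6% called either way. The median log2 difference of the members was 0.06 and that of all genes -0.01. The 3 DSS arrays lay wholly above the 2 control colons for Mcpt1, Mcpt2, Tpsb2 and Hdc, 4 of 10 members against 22.1% of all genes, and wholly below them for Cma1, 1 of 10 against 18.0%.

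Mcpt2, a chymase-family protease of mucosal mast cells, had log2 intensities of 5.37 (WT) and 5.26 (KO) in control colon, 6.60 in WT DSS colon, and 7.50 and 6.55 in KO DSS replicates 1 and 2. It was 5.64 in WT and 6.76 in KO ileum. All 3 DSS arrays were thus above both control colons, the KO ileum stood among the DSS arrays, and the WT ileum stood near the control colons. The log2 difference of DSS from control colon was 1.49 ± 0.34 (SE; adjusted p = 0.0433). This call sat close to the threshold: without the WT control colon the adjusted p was 0.120 (difference 1.87), without the KO control colon 0.335 (1.03) and without the WT DSS array 0.165 (1.46), within 0.0307 to 0.335 over all alternatives. It was also lost in a model with all 6 groups (adjusted p = 0.121), with labelled sex as a covariate (adjusted p = 0.0615) and with a pseudocount of 16 (adjusted p = 0.0721). The labelled sex goes against the sex markers on the 3 WT arrays, so this covariate does not adjust for the sex they show. Given condition and genotype, it is the same term as the interaction of genotype with DSS. The difference of Mcpt2 was positive in each single pair. It was 1.23 between the WT arrays, and 2.24 and 1.30 between the KO DSS replicates and the KO control colon.

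Mcpt1, the chymase that mucosal mast cells release into blood and gut lumen, had 5.16 in WT and 5.07 in KO control colon, 5.26 in WT DSS colon, and 6.20 and 5.58 in KO DSS replicates 1 and 2. Its ileum values were 5.39 in WT and 5.76 in KO. It was highest on KO DSS replicate 1, as Mcpt2 was, but in WT the DSS array was only 0.10 above the control. The log2 difference of 0.51 ± 0.23 did not pass (adjusted p = 0.231, 95% interval -0.05 to 1.07). Mcpt1, Mcpt2 and Mcpt4 are close paralogs, and how far the probe sets read each other's RNA was not tested.

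The genes of connective tissue mast cells gave small values. Cma1 had 5.47 and 5.49 in the WT and KO control colons, 5.24 in WT DSS colon and 5.23 and 5.33 in the KO DSS replicates, a log2 difference of -0.21 ± 0.11 (adjusted p = 0.289). Mcpt4 stayed at 4.90 to 5.05 over these 5 colon arrays (-0.07 ± 0.10, 95% interval -0.32 to 0.17). At this dim level a flat value does not show that its RNA was unchanged. Cpa3, the granule carboxypeptidase found in nearly all mast cells, had 4.50 and 4.81 in the controls, 4.78 in WT DSS colon and 5.01 and 4.65 in KO DSS replicates 1 and 2, so the groups overlapped (0.11 ± 0.16, 95% interval -0.26 to 0.49). Tpsb2 differed by 0.12 ± 0.11, Fcer1a by -0.14 ± 0.11 and Ms4a2 by 0.00 ± 0.10, none of which passed.

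**Figure D2:**
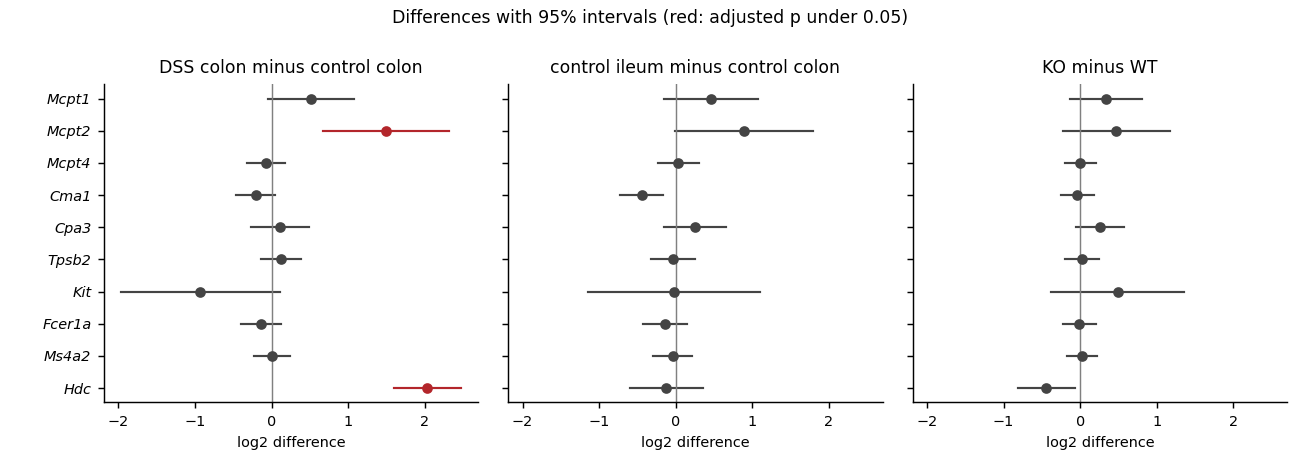
Log2 differences (x axis) of the 10 genes (y axis) in the 3 comparisons fitted over all 7 arrays; points are limma estimates, bars their 95% intervals, and red marks an adjusted p under 0.05. Mcpt2 (1.49) and Hdc (2.04) are the red points, both in DSS colon minus control colon, and the intervals of Kit are wide in every panel.

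Hdc, histidine decarboxylase, the enzyme that makes histamine, had a log2 intensity of 6.36 in WT and 6.18 in KO control colon, 8.78 in WT DSS colon, and 8.07 and 7.84 in KO DSS replicates 1 and 2. The ileum values were 6.23 in WT and 6.06 in KO. The 4 control arrays therefore spanned 0.31 log2 units and every DSS array lay above them. The difference of DSS from control colon was 2.04 ± 0.18 (adjusted p = 0.00319). Without the WT control colon it was 1.87 with an adjusted p of 0.0518, and the adjusted p was 0.000780 to 0.0518 over all alternatives. Hdc had the highest value in WT DSS colon, whereas Mcpt2 had it on KO DSS replicate 1.

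Neutrophil genes were higher on the same arrays as Hdc. Of 8 neutrophil genes 7 rose in DSS colon, against 7.20% of all genes. Among them were Clec4e (3.28 ± 0.40), a lectin receptor, and Retnlg (2.10 ± 0.25), a neutrophil granule product. S100a9 (2.61 ± 0.28) and S100a8 (2.28 ± 0.18), the subunits of calprotectin, rose as well. Leaving out the KO control colon ended the calls of Clec4e, S100a8 and Retnlg, and leaving out the WT control colon those of Clec4e and Retnlg. The list's median difference was 2.08 against -0.01 for all genes. Its mean level was 6.31 and 6.46 in the WT and KO control colons and 8.07 to 8.55 on the DSS arrays. That mean takes in Ly6g, which was already at 12.50 and 12.48 in these control colons. Ly6g had 12.58 to 13.12 on the DSS arrays, and 5.11 and 4.95 in WT and KO ileum. Of 4 basophil genes none passed, and the mean level of that list was 5.77 and 5.80 in control colons and 5.76 to 5.93 in DSS colons, with the basophil protease Mcpt8 at 4.71 to 5.04 over all 7 arrays. None of 6 eosinophil genes passed, with a median of -0.03. Neither list had a member with an unadjusted p under 0.05 in limma. The part of neutrophils in the level of Hdc was not tested.

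Of the genes that act on histamine, the enzyme that degrades it in the gut fell. Aoc1, the diamine oxidase of the intestinal epithelium, had 13.09 in WT and 12.88 in KO control colon, 11.43 in WT DSS colon and 11.28 and 11.51 in KO DSS replicates 1 and 2. Its ileum values were 13.42 in WT and 13.45 in KO. All DSS arrays were below all control arrays, and the log2 difference was -1.57 ± 0.12 (adjusted p = 0.00198), while the 9 epithelial genes had a median difference of 0.03 with 1 higher and 0 lower. Hnmt, which methylates histamine inside cells, stood at -0.42 ± 0.13 and did not pass. The receptors Hrh1, Hrh2, Hrh3 and Hrh4 did not pass either, the largest difference being that of Hrh2, the receptor of acid secretion and immune regulation, at 0.30 ± 0.10. Aoc1 was thus the 1 called gene among the 6 measured of the 7 listed, against 10.6% of all genes called either way. Histamine itself was not measured.

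Kit was bright but uneven among the DSS arrays. Its log2 intensity was 9.22 (WT) and 9.16 (KO) in control colon, 7.55 in WT DSS colon, and 9.37 and 8.11 in KO DSS replicates 1 and 2, with 9.11 in WT and 9.22 in KO ileum. KO DSS replicate 1 lay above both control colons and the other 2 DSS arrays lay below them, so the groups overlapped. The difference of -0.93 ± 0.43 did not pass (adjusted p = 0.236). Without KO DSS replicate 1 it was -1.36 with an adjusted p of 0.00373, the lowest of 0.00373 to 0.687 over all alternatives.

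Some markers of the muscle wall were uneven among the same arrays, in differing orders. Etv1, a transcription factor of interstitial cells of Cajal, had 8.17 and 8.10 in the WT and KO control colons, 7.00 in WT DSS colon, and 8.35 and 7.54 in KO DSS replicates 1 and 2. Among the 3 DSS arrays Kit, Etv1 and the smooth muscle mean were highest on KO DSS replicate 1 and lowest in WT DSS colon. Thbs4, an extracellular matrix protein of the same list, had another order, lowest on KO DSS replicate 1, with 11.62 on replicate 2 and 11.45 in WT DSS colon, against 11.97 and 11.74 in the WT and KO control colons. Ano1, the chloride channel of these pacemaker cells, had 11.24 and 10.99 in the control colons and 9.60 to 9.75 on the 3 DSS arrays. In limma it fell by 1.43 ± 0.12 on the log2 scale (adjusted p = 0.00275). It was lower still in control ileum, at 8.27 in WT and 8.10 in KO. Thbs4 was also low there, at 7.05 and 6.89, whereas Kit had 9.11 and 9.22. Gpr20 and Hcn4, also of the Cajal cell list, shared the order of Kit over the DSS arrays, as Etv1 did. From highest to lowest, Gpr20 read 8.13, 7.93 and 7.77, and Hcn4 read 6.50, 6.17 and 5.98. Ano1, Thbs4 and Elovl6 of that list did not have this order. Of the 6 genes of the Cajal cell list 0 were higher and 1 lower, with a median of -0.37. Of the 14 smooth muscle genes 0 were higher and 4 lower, with a median of -1.55. Over all genes 7.20% were higher and 3.43% lower, with a median of -0.01. The 4 lower muscle genes included Des (-1.97 ± 0.43) and Synm (-1.67 ± 0.37), intermediate filament proteins of muscle. The calls of Des and Synm were each lost without any 1 of 6 arrays, all but KO DSS replicate 1. Fcer1a and Ms4a2, at 4.35 to 4.54 and 4.52 to 4.64 on the DSS arrays, were too dim to show whether they shared the unevenness of Kit. Brighter mast cell genes outside the members had differing orders. Tpsg1 had the order of Kit, with 8.69 and 8.21 on KO DSS replicates 1 and 2 and 7.38 in WT DSS colon. Tph1, Alox5, Ltc4s, Slc18a2 and Il9r had the order of Kit too, some by narrow gaps. Hpgds had the reverse order, with 6.39, 6.59 and 6.65 on the same arrays, as had Srgn and Fcer1g. The remaining brighter genes of that list had neither order. The part of the muscle layer in the level of Kit was not tested.

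**Figure D3:**
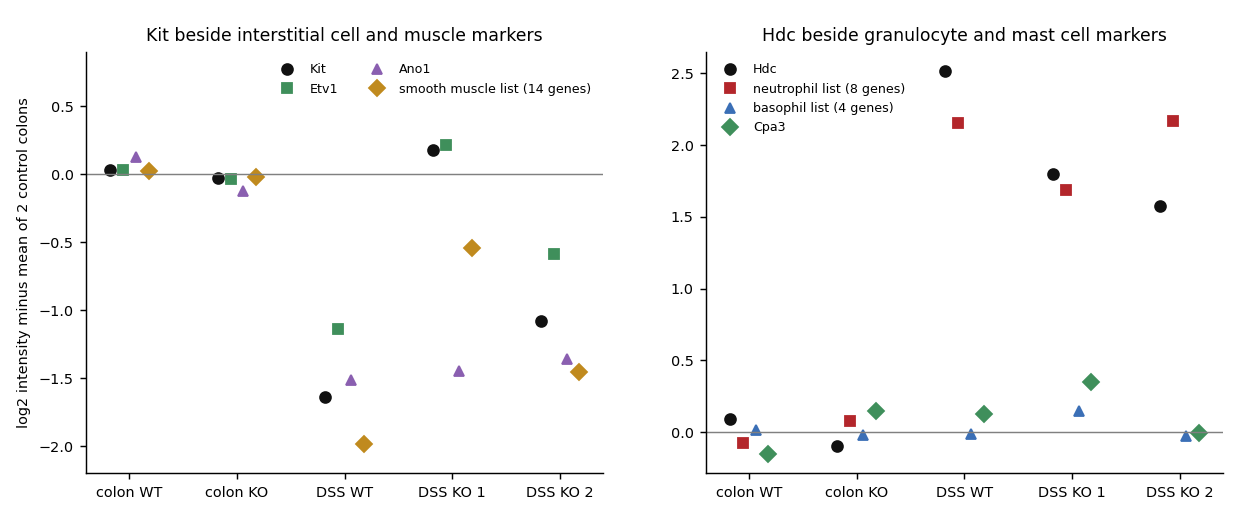
Log2 intensity minus the mean of the 2 control colons (y axis) on the 5 colon arrays (x axis), for Kit with Etv1, Ano1 and the mean of 14 smooth muscle genes (left), and for Hdc with the means of the neutrophil and basophil lists and Cpa3 (right), 1 symbol per array. On the left Kit and Etv1 are near the controls on KO DSS replicate 1 and lowest in WT DSS colon, while Ano1 is low on all 3 DSS arrays; on the right Hdc and the neutrophil mean are high on all 3 DSS arrays and Cpa3 and the basophil mean stay near 0.

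Of 24 further mast cell genes 20 were measured, and 2 rose and 1 fell in DSS colon, with a median of -0.10. These 3 of 20 stand against 10.6% of all genes called either way. Fcer1g, the signalling chain of the IgE receptor, which macrophages and neutrophils also use, rose by 1.85 ± 0.36 on the log2 scale (adjusted p = 0.0277), and Srgn, the proteoglycan core that binds granule proteases in many blood cells, rose by 1.25 ± 0.24 (adjusted p = 0.0269). Hpgds, which makes prostaglandin D2, fell by 1.28 ± 0.14 (adjusted p = 0.00525), from 7.94 and 7.72 in control colons to 6.39 to 6.65 on the DSS arrays. Rgs13, a regulator of G protein signalling, stood at -1.51 ± 0.47 and did not pass. Its highest values were in control ileum, at 9.08 in WT and 8.77 in KO. Which cells the RNA of Hpgds, Rgs13 and the other listed genes came from was not tested. Fcer1g, Srgn and Hpgds each lost the call without either control colon, and Fcer1g also without KO DSS replicate 2 or the WT DSS array and Srgn without KO DSS replicate 2.

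The 15 genes of mast cell growth and homing had a median difference of 0.21, against -0.01 for all genes. Of these 15 genes 5 rose and 0 fell, against 7.20% of all genes higher and 3.43% lower. They were Cxcr2 (2.05 ± 0.25), a chemokine receptor that neutrophils carry as well and that is also in the neutrophil list, Itgb6 (1.15 ± 0.15), the epithelial integrin chain that activates TGF-beta, Vcam1 (1.02 ± 0.10) and Madcam1 (0.65 ± 0.15), adhesion molecules of gut vessels, and Itgb7 (0.53 ± 0.11), the integrin chain of gut-homing leukocytes. Vcam1 and Itgb6 lost the call without the KO control colon and Cxcr2 without either control colon, while Madcam1 and Itgb7 lost it without most single arrays. Stem cell factor, Kitl, ranged from 9.39 to 10.08 over the 7 arrays and did not pass (-0.38 ± 0.17), nor did the alarmin Il33 (1.09 ± 0.33).

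Between control ileum and control colon no member passed in limma (0 of 10, against 5.94% of all genes higher, 3.22% lower and 9.16% called either way), and 1 member, Cma1, had an unadjusted p under 0.05, as 4404 of the 19938 genes did. Cma1 was 5.13 and 4.94 in WT and KO ileum against 5.47 and 5.49 in colon, a log2 difference of -0.45 ± 0.12 (adjusted p = 0.0687). Over its alternatives the adjusted p was 0.0380, with a variance trend and robust fit, to 0.441. Mcpt2 stood at 0.89 ± 0.37 (95% interval -0.01 to 1.78) and Mcpt1 at 0.46 ± 0.25, carried mainly by the KO arrays, where ileum exceeded colon by 1.51 and 0.69, against 0.27 and 0.23 in WT. Kit and Hdc had values of -0.02 ± 0.47 and -0.12 ± 0.20.

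The knockout moved no member past the threshold. Over ileum, control colon and DSS colon 0 of 10 passed in limma, against 0.00502% of all genes, and the members' median difference was 0.03. At an unadjusted p under 0.05 there was 1 member, Hdc, among 720 genes. Hdc was lower in KO than in WT within each condition, with log2 differences of -0.18 for ileum, -0.19 for control colon and -0.83 for DSS colon (-0.44 ± 0.15 in all, adjusted p = 0.989). Cpa3 stood at 0.26 ± 0.13, Mcpt1 at 0.33 ± 0.20, Mcpt2 at 0.47 ± 0.29 and Kit at 0.49 ± 0.36. The remaining 5 members lay within 0.04 of 0, with 95% intervals inside -0.25 to 0.25 after rounding.

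In DSS colon alone, KO against WT gave 0 called members and 0% of all genes. Kit and Hdc had an unadjusted p under 0.05, among 776 genes. Kit stood at 1.19 ± 0.47 (adjusted p = 1.00), at 0.56 without KO DSS replicate 1 and at 1.82 (adjusted p = 0.00109) without KO DSS replicate 2. Leaving out either replicate sets 1 array against 1, with the spread taken from the control arrays alone and assumed to hold in DSS colon. Without replicate 2 this called 538 genes, against 0 with all arrays. The 2 KO replicates differed by 1.26 in Kit and by 0.94 in Mcpt2, wider than the gap between replicates in 99.4% and 98.5% of all genes. Hdc was -0.83 ± 0.17 (adjusted p = 1.00), with both KO replicates below the WT array. The interaction of genotype with DSS was likewise called in 0 members and 0% of genes, with Hdc (-0.65 ± 0.22) among the 639 genes at an unadjusted p under 0.05. Kit was at 1.16 ± 0.61. Without KO DSS replicate 2 it was at 1.79 (adjusted p = 0.00726), again with 1 DSS array per genotype and the spread of the controls, and 279 genes were then called against 0.

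The genes nearest in pattern to the mucosal chymases were sought among 10082 other genes above the median intensity, by the root mean square distance of mean-centred log2 values over the 7 arrays from the mean of Mcpt1 and Mcpt2. They were Gem, a small GTPase (distance 0.23), the chemokine Ccl9 (0.23), the interferon receptor subunit Ifnar2 (0.24), Gm1965 (0.24) and Lgals3bp (0.25), against 0.57 for the median gene and 0.55 for a flat line. These genes were picked for their closeness, so a shared order of arrays is no separate finding. Ccl9, like Mcpt2, was highest on KO DSS replicate 1 (8.91) and lower in control colons (7.27 and 7.35). In WT ileum Ccl9 (8.07) was above WT DSS colon (7.71) and KO DSS replicate 2 (7.97), whereas Mcpt2 (5.64) was below every DSS array. The mean of Mcpt4 and Cma1 was itself nearly flat (0.085 from a flat line), and its nearest genes were Cog3, Tceal8, Sri, Gm9867 and Bsdc1, at 0.026 to 0.036, with ranges of 0.21 to 0.33.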

How the data were processed

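The authors deposited 1 linear intensity per probe set and array (10.4 to 22236.4), from biotin-labelled total RNA per the labels' protocols. Summarisation and normalization are not given in the sources used here. Values were taken as normalized and their log2 computed, which was also the scale planned for the tests. Of 35512 probe sets, 21789 carried 1 symbol in the platform annotation, 1621 several and 12102 none. The probe set with the highest mean stood for a gene, leaving 19938 genes.

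Models were fitted with limma 3.58.1 (lmFit, eBayes) in R 4.3.3: condition plus genotype (3 residual degrees of freedom) for DSS, tissue and genotype, and with an added interaction (2 residual degrees) for KO against WT in DSS colon. Differences are given ± SE. The scripts were tested on simulated data. Promoter windows were aligned with Biopython 1.88; figures used matplotlib 3.10.9.

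The members and gene lists were chosen with earlier results of these data known. The text names all members, genes among the 4 with the largest change from each other list described, and the 5 nearest patterns. Genes named outside that rule are Hrh3, Hrh4, Kitl, Synm, Madcam1, Itgb7, Tpsg1, Tph1, Alox5, Ltc4s, Slc18a2, Il9r, Gpr20, Hcn4 and Ly6g. They were chosen after their values were seen.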

Additional observations from a re-analysis of the deposited data

Results flagged for a closer look

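The difference of Mcpt2 between KO and WT had opposite signs in the 2 control tissues. KO was above WT by 1.12 log2 units in ileum (6.76 against 5.64), a gap wider than that of 99.4% of all genes between the same arrays, while the difference in control colon was -0.11, a gap wider than that of only 36.6% of genes, so its sign carries little weight. Each value is 1 array against 1 array, and the difference between the tissues was not tested.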

How the results depend on the processing

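Over 50 differences of single genes, 809 recomputations kept direction and side of the threshold in 717 cases. They lost a call in 66, gained one in 8 and changed sign in 18. Not all are separate checks. For DSS, for example, colon arrays alone and leaving out either ileum array gave the same fit, with 1617 genes called each time. The count of called members for DSS, 2, became 1 without dim genes (where 8 of 10 members are dropped), in the 6-group model, with labelled sex as a covariate and with a pseudocount of 16, and lay between 0 and 3 when single arrays were left out. The tissue count of 0 became 1 with a variance trend and robust fit, and the counts for KO in DSS colon and for the interaction lay between 0 and 1 with single arrays left out. Sign changes all concerned uncalled values. Ms4a2 in DSS was -0.00682 in the 6-group model and with labelled sex, -0.00249 with colon arrays alone, and -0.0246 to 0.0390 with arrays left out. Mcpt4 then ran from -0.158 to 0.000109 and Cpa3 from -0.0235 to 0.239. For tissue, Hdc ran from -0.31 to 0.065 and Kit from -0.41 to 0.37. Mcpt2 ran from -0.050 to 0.89 for KO in DSS colon and from -0.70 to 0.53 for the interaction, the upper value also with colon arrays alone. Over all genes, the DSS count of 2120 was 297 in the 6-group model and 183 to 3549 with arrays left out, the tissue count of 1826 was 764 and 660 to 2418, and the counts of 0 for KO in DSS colon and for the interaction were 10 and 2 with a variance trend and robust fit and reached 538 and 279 with arrays left out. The KO count of 1 was 0 in the 6-group model and with colon arrays alone. Labelled sex could not be fitted beside the interaction, because given condition and genotype the 2 are the same term. No paired analysis was possible because the groups share no replicate numbers in the labels. With 7 arrays, the number of arrays limits the precision.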
